A study of Homo sapiens with 3 samples.

Results

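The contacts of 6 captured regions were compared between 2 breast cancer cell lines, BT483 and SUM44. The members were the 4 replicate count columns of these lines, 2 for BT483 and 2 for SUM44, out of 6 replicate columns in the whole series, and all 6 captured regions were used. The other 2 columns belong to GM06990, a lymphoblastoid line from a B-lymphocyte, whose values are given only as context. BT483 cells, from a primary invasive ductal carcinoma, grew in RPMI medium with 20% fetal bovine serum and 0.01 mg/ml insulin and were lysed with 0.25% trypsin for 5 min. SUM44 cells, whose source the labels give as a plural effusion, grew in RPMI medium free of phenol red with 10% serum and 1 nM estradiol and were lysed with 10 strokes of a dounce homogeniser. GM06990 cells grew in RPMI medium with 15% serum and were lysed as SUM44 was. All 3 lines were fixed with 2% formaldehyde for 5 min and cut with HindIII. Line, medium and lysis cannot be told apart in this design. Each line is 1 established culture, and nothing states that its replicates came from separate cultures, so p-values measure only the spread between these libraries, which may be technical.

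In capture Hi-C, fixed chromatin is cut and religated so that DNA ends which were neighbours in the nucleus become joined, and joined pairs with 1 end in a chosen region are pulled out with complementary baits. As background, contact is frequent between neighbours on a chromosome and falls with distance, and contact with a given site on another chromosome is rarer. Target genes of non-coding risk variants, such as MYC at 8q24.21, are sought in this way because an enhancer can act on a gene far along the chromosome. A contact count also scales with how many copies of the target a cell holds; copy number was not measured here and the counts were not scaled to it.

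The captured regions were 2q35 on chromosome 2 from 217609776 to 218362744 (GRCh37), 8q24.21 on chromosome 8 from 127886760 to 128470692 and 9q31.2 on chromosome 9 from 110758376 to 111099364. The 3 further regions, whose role the labels do not state, lay on chromosome 3 from 82599410 to 82938789, chromosome 16 from 73599933 to 74183980 and chromosome 18 from 38494518 to 39252983. Contacts within 5 Mb of the capture (near cis) numbered 306886 and 1184052 in BT483 replicates 1 and 2, against 1365525 and 1215127 in SUM44. Those farther along the same chromosome (far cis) numbered 263743 and 886353 in BT483 and 746374 and 651187 in SUM44. Contacts with other chromosomes (trans) numbered 1290205 and 3797017 in BT483 and 1532210 and 1532750 in SUM44. Trans contacts were 69.33% and 64.71% of these 3 classes in BT483, against 42.05% and 45.09% in SUM44. Near cis contacts were 16.49% and 20.18% in BT483, against 37.47% and 35.75% in SUM44. Pairs were amplified without molecular identifiers, so counting error is a lower limit on the error.

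The BT483 replicates differed far more from each other than the SUM44 replicates did. Over trans bins of 1 Mb, the replicates differed by more than 2-fold in 157 of 2877 bins in BT483 and in 0 in SUM44. The 2q35 region gave 13.35% and 19.86% of the trans contacts of the BT483 replicates, against 30.94% and 31.64% in SUM44, and the chromosome 16 region gave 26.56% and 13% in BT483, against 12.64% and 12.52% in SUM44. A chi-square test of the 2 SUM44 replicates over far cis windows of 50 kb gave 1.01 per degree of freedom (p = 0.257 over 10902 windows), so in far cis no difference beyond the sampling noise was detected and they may count as 1 sample. In near cis the same ratio was 1.18 (chi-square p = 2.26e-48) and in trans 1.23 (chi-square p = 5.37e-17) for SUM44, against 5.95 and 30.2 for BT483. Over the trans counts of captured fragments it was 14.9 for SUM44 and 268 for BT483. In these measures the SUM44 replicates did differ beyond the sampling noise, though by less than the BT483 ones. Each test was also run with the SUM44 replicates summed as 1 sample, a setting chosen after seeing the data. The spread is then estimated from the BT483 pair alone, and SUM44 is assumed to vary like it.

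Near the captured regions, few single targets were called different between the lines once distance was allowed for. A target that was not called is not shown to be equal. Of 9959 target HindIII fragments, 4 had more contacts in BT483 (0.0402%) and 7 had fewer (0.0703%; 0.11% called in all by edgeR's quasi-likelihood test with Benjamini-Hochberg adjustment over all fragments of the 6 regions, threshold 0.05). At an unadjusted p under 0.05 there were 1550 fragments. With the SUM44 replicates summed, 6 fragments were called (0.0602%), 4 higher and 2 lower in BT483. DESeq2 on the same counts and offsets called 5. Leaving out BT483 replicate 1 or 2 gave 1307 and 944 calls, and leaving out SUM44 replicate 1 or 2 gave 3 and 5. In each such fit the lone library is assumed to vary like the pair.

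The clearest near cis difference lay about 3.4 Mb from the chromosome 16 capture, where 3 adjoining fragments had more contacts in BT483. The fragment from 70185694 to 70193004 had 31 and 61 contacts in BT483, against 13 and 5 in SUM44 and 127 and 118 in GM06990. These were 5.75 and 4.42 times the count expected from distance in BT483, against 0.674 and 0.287 in SUM44 and 9.54 and 8.53 in GM06990. The fragment from 70193005 to 70194143 had 25 and 60 contacts in BT483 and 8 and 2 in SUM44, and that from 70194144 to 70196632 had 18 and 46 in BT483 and 3 and 6 in SUM44. BT483 and GM06990 were thus above the expectation at all 3 fragments, and SUM44 was below it. The log2 fold changes of BT483 over SUM44 were 3.30 ± 0.38, 3.99 ± 0.43 and 3.72 ± 0.43 (SE; edgeR adjusted p = 0.00303 for each). With the SUM44 replicates summed, all 3 kept their call (edgeR adjusted p = 4.2e-06, 1.48e-07 and 3.56e-05).

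The 50 kb window that holds these fragments, from 70150001 to 70200000 on chromosome 16, was the only 1 of 1199 windows called (0.0834%). There were 334 windows at an unadjusted p under 0.05, and 147 at an edgeR adjusted p under 0.1. The called window had 120 and 384 contacts in BT483, against 79 and 38 in SUM44 and 608 and 632 in GM06990. Its log2 fold change was 2.997 ± 0.28 (SE; edgeR adjusted p = 0.0376). Without SUM44 replicate 2 no window was called, and without SUM44 replicate 1 this window was the only 1 called. Without BT483 replicate 1 or 2 the fit called 517 and 365 windows. The start of PDPR, a subunit gene of the pyruvate dehydrogenase phosphatase named here after the values were seen, lies just centromeric of this window. PDPR has near-identical copies on chromosome 16, and how the authors' counting divided reads between such copies is not given in the sources used here.

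At 8q24.21, 4 fragments had fewer contacts in BT483 and none had more. BT483 was below the distance expectation at all 4, and SUM44 was above it at 3. The fragment from 127583272 to 127588709, in the window that holds the start of FAM84B, had 22 and 178 contacts in BT483 and 412 and 387 in SUM44, or 0.312 and 0.542 times the expectation in BT483 against 1.17 and 1.22 in SUM44. The log2 fold change was -1.35 ± 0.21 (SE; edgeR adjusted p = 0.0342), and with SUM44 summed the adjusted p was 0.0844. A fragment closer to the capture, from 127659397 to 127660431, had 14 and 99 contacts in BT483 and 312 and 237 in SUM44. Its log2 fold change was -1.55 ± 0.22 (SE; edgeR adjusted p = 0.0161, and 0.0346 with SUM44 summed). On the MYC side, the fragment from 129845445 to 129846308 had 21 and 139 contacts in BT483 and 309 and 263 in SUM44, a log2 fold change of -1.13 that was not called with SUM44 summed (edgeR adjusted p = 0.611). The largest ratio of the region was at 131851806 to 131852415, between the starts of ASAP1 and ADCY8. There 3 and 14 contacts in BT483 stood against 75 and 58 in SUM44, a log2 fold change of -2.45 ± 0.34 (SE; edgeR adjusted p = 0.0156, and 0.0117 with SUM44 summed).

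The remaining near cis calls lay beside the chromosome 3 and chromosome 18 captures, and none of them held when the SUM44 replicates were summed. On chromosome 3, the fragment from 82961672 to 82962073, 22.9 kb from the capture, had 21 and 78 contacts in BT483 and 25 and 26 in SUM44, a log2 fold change of 1.74 ± 0.29 (SE; edgeR adjusted p = 0.0423). Its neighbours from 82974646 to 82980876 and from 82980877 to 82985680 went the other way, with 7 and 17 and 7 and 21 contacts in BT483 against 80 and 75 and 89 and 80 in SUM44. Their log2 fold changes were -1.85 and -1.76 (edgeR adjusted p = 0.0342 for both). On chromosome 18, the fragment from 38269450 to 38270071 had 29 and 73 contacts in BT483 and 304 and 277 in SUM44, a log2 fold change of -1.30 ± 0.21 (SE; edgeR adjusted p = 0.0342).

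Genes near the captured regions were then read from the window that holds each gene's start. None of 58 listed genes lay in a called window (0.0834% of all windows were called). By edgeR, 12 of the 58 had an unadjusted p under 0.05, against 334 of all 1199 windows. The replicates of the lines did not overlap in 32 of the 58 (55.2%), against 719 of all 1199 windows (60%), so the listed genes were close to the background. Their median log2 fold change was 0.06, against 0.02 for all windows. PECR and TMEM169 share a window, as do DHX38 and TXNL4B, and RFWD3 and MLKL. TNP1, PCAT1 and POU5F1B lie inside the captures and were not tested.

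MYC, the transcription factor gene on the telomeric side of 8q24.21, had 3293 and 12346 contacts in BT483, against 12867 and 11856 in SUM44. These were 2.30 and 1.89 times the distance expectation in BT483 and 1.81 and 1.85 times in SUM44. Both lines thus contacted the MYC window more than distance predicted, and the log2 fold change of 0.19 ± 0.10 was not called (SE; edgeR adjusted p = 0.264). PVT1, the non-coding gene beyond MYC, had 1.04 and 1.31 times the expectation in BT483 and 0.885 and 0.859 in SUM44 (log2 fold change 0.44 ± 0.12, edgeR adjusted p = 0.0882). FAM84B, on the centromeric side, had 0.659 and 0.955 in BT483 and 1.12 and 1.15 in SUM44 (log2 fold change -0.47 ± 0.17, edgeR adjusted p = 0.148). TRIB1, which codes for a pseudokinase, had 0.431 and 0.519 in BT483 and 0.366 and 0.359 in SUM44 (log2 fold change 0.41 ± 0.13, edgeR adjusted p = 0.131). The replicates of the lines did not overlap at MYC, PVT1, FAM84B or TRIB1, and none of these passed the test. The same held for the overlap in 719 of all 1199 windows (60%).

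KLF4, the transcription factor gene near 9q31.2, had 573 and 2117 contacts in BT483 and 2456 and 1941 in SUM44. Observed over expected was 2.81 and 1.98 in BT483 and 2.01 and 1.81 in SUM44, so that the replicates of the lines overlapped (log2 fold change 0.30 ± 0.17, edgeR adjusted p = 0.285). No 9q31.2 target was called at any size of near cis window, and of its 201 windows of 50 kb 9 had an unadjusted p under 0.05. At 2q35, IGFBP5, which codes for an insulin-like growth factor binding protein, had 2107 and 9376 contacts in BT483 and 24640 and 22182 in SUM44. Relative to distance these were 2.66 and 2.14 in BT483 and 2.06 and 2.09 in SUM44 (log2 fold change 0.20 ± 0.11, edgeR adjusted p = 0.26). The raw counts and the ratios to expectation thus pointed opposite ways at IGFBP5. With TMM scaling of library totals and no distance term the log2 fold change was -1.49. FN1, the fibronectin gene, had 0.82 and 0.821 times the expectation in BT483 and 0.622 and 0.626 in SUM44 (log2 fold change 0.40 ± 0.10, edgeR adjusted p = 0.0787).

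On the telomeric side of the chromosome 16 capture the listed genes had smaller ratios in BT483 but did not pass the test. FA2H, a fatty acid hydroxylase gene, had 107 and 249 contacts in BT483 and 284 and 241 in SUM44, or 0.178 and 0.191 times the expectation in BT483 and 0.313 and 0.292 in SUM44. The log2 fold change was -0.71 ± 0.13 (SE; edgeR adjusted p = 0.054), the smallest adjusted p of the listed genes. The window of RFWD3, a ubiquitin ligase gene, and MLKL, an effector of necroptosis, had 0.203 and 0.248 in BT483 and 0.362 and 0.328 in SUM44 (log2 fold change -0.60 ± 0.15, edgeR adjusted p = 0.0737). PSMD7, a proteasome subunit gene, had 0.601 and 0.888 in BT483 and 1.04 and 1.07 in SUM44 (log2 fold change -0.50 ± 0.17, edgeR adjusted p = 0.148).

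In wider windows of 100 kb, 64 of 610 were called (10.5%), 40 higher (6.56%) and 24 lower (3.93%) in BT483, and adjoining called windows formed 15 stretches. None of the windows was called when the SUM44 replicates were summed (smallest edgeR adjusted p = 0.128, 53 at an unadjusted p under 0.05), so these stretches rest on the SUM44 replicates being separate samples. Chromosome 16 had the most, 10 windows higher and 10 lower. From 71200001 to 71600000, where HYDIN and CALB2 start (both named after the values were seen), the ratio to expectation was 0.421 and 0.568 in BT483, against 0.965 and 0.945 in SUM44 and 1.13 and 1.14 in GM06990. From 77300001 to 77700000, around the start of ADAMTS18 (also named afterwards), it was 1.06 and 1.10 in BT483, against 1.85 and 1.90 in SUM44 and 1.21 and 1.14 in GM06990. From 77000001 to 77200000 it was 2.62 and 2.27 in BT483 and 1.42 and 1.44 in SUM44. On chromosome 2, 4 stretches were higher in BT483, the farthest from 221900001 to 222200000 with 0.91 and 0.836 in BT483 and 0.495 and 0.51 in SUM44. On chromosome 3 the stretch from 80800001 to 81200000 had 1.08 and 0.842 in BT483 and 0.479 and 0.476 in SUM44.

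**Figure D1:**
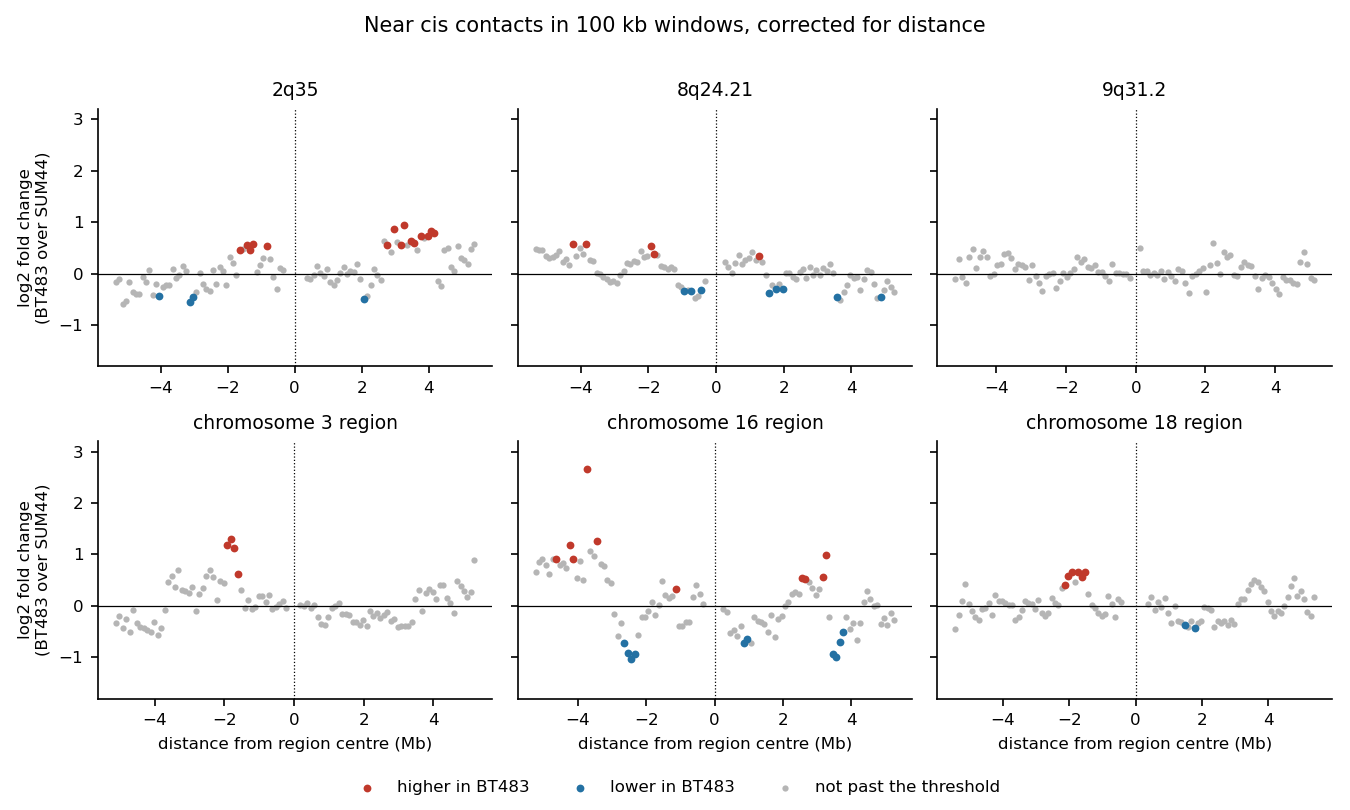
Log2 fold change of BT483 over SUM44 (vertical axis) in near cis windows of 100 kb against distance from the centre of the captured region in Mb (horizontal axis), 1 panel per region, with called windows marked by direction. Of 610 windows, 40 were higher and 24 lower in BT483, and none was called at 9q31.2.

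Farther along the captured chromosomes the lines differed in many bins of 1 Mb. Of 791 bins, 190 had more contacts in BT483 (24%) and 138 had fewer (17.4%; 41.5% called in all, edgeR, adjusted over all far cis bins). Counting SUM44 as 1 sample, since no difference of its replicates beyond the sampling noise was detected, left 130 bins, 84 higher and 46 lower in BT483 (16.4%). With TMM scaling and no distance term the split was 108 higher and 146 lower. Without BT483 replicate 1 or 2 there were 583 and 508 calls, and without SUM44 replicate 1 or 2 there were 120 and 133. By region, higher and lower bins numbered 87 and 59 of 231 at 2q35, 18 and 8 of 134 at 8q24.21, and 15 and 9 of 102 at 9q31.2. They numbered 45 and 36 of 187 for the chromosome 3 region, 9 and 15 of 71 for chromosome 16 and 16 and 11 of 66 for chromosome 18.

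The largest far cis differences at 2q35 lay near the other end of chromosome 2. The bin from 12000001 to 13000000 had 142 and 786 contacts in BT483 and 96 and 79 in SUM44, or 1.37 and 1.502 times the expectation in BT483, against 0.157 and 0.145 in SUM44 and 1.17 and 1.21 in GM06990. The next bin, from 13000001, had 112 and 614 contacts in BT483 and 55 and 57 in SUM44. Their log2 fold changes were 3.25 ± 0.16 and 3.63 ± 0.18 (SE; edgeR adjusted p = 0.000647 for both). SUM44 stood far below the expectation at both bins, and both BT483 replicates were above it. A few Mb on, the direction turned: the bin from 20000001 had 0.623 and 0.769 times the expectation in BT483 and 2.22 and 2.11 in SUM44 (log2 fold change -1.59 ± 0.12, edgeR adjusted p = 0.00144). On the nearer side, the bin from 227000001, which holds IRS1 (an insulin receptor substrate gene, named after the values were seen), had 306 and 2234 contacts in BT483 and 9361 and 7997 in SUM44. It stood at 0.863 and 0.896 times the expectation in BT483, against 2.50 and 2.46 in SUM44 and 0.818 and 0.81 in GM06990 (log2 fold change -1.49 ± 0.09, edgeR adjusted p = 0.00109).

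At 8q24.21 the far cis bin with the largest difference lay on the short arm of chromosome 8. This bin, from 36000001 to 37000000, had 189 and 660 contacts in BT483 and 2643 and 2481 in SUM44, or 0.535 and 0.479 times the expectation in BT483, against 3.70 and 3.73 in SUM44 and 0.746 and 0.754 in GM06990. Its log2 fold change was -2.89 ± 0.09 (SE; edgeR adjusted p = 0.000181). The next bin, from 37000001, holds ZNF703, a transcriptional corepressor gene, and differed the other way. It had 1918 and 8943 contacts in BT483 and 2536 and 2409 in SUM44, or 5.17 and 6.18 times the expectation in BT483, against 3.46 and 3.53 in SUM44 and 1.14 and 1.14 in GM06990. Both breast lines were thus above the expectation at ZNF703, with a log2 fold change of 0.70 ± 0.12 (SE; edgeR adjusted p = 0.00988). With SUM44 as 1 sample this bin was not called (edgeR adjusted p = 0.122). The bin of FGFR1, a fibroblast growth factor receptor gene, from 38000001, had 1.08 and 1.23 times the expectation in BT483 and 2.48 and 2.68 in SUM44 (log2 fold change -1.15 ± 0.10, edgeR adjusted p = 0.00188).

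The chromosome 3 region had the far cis run with the largest mean ratio of BT483 to SUM44. Over the 6 bins from 47000001 to 53000000 it had 149 and 579 contacts in BT483, against 33 and 60 in SUM44 and 212 and 418 in GM06990. These were 0.348 and 0.483 times the expectation in BT483, 0.0421 and 0.0901 in SUM44 and 0.325 and 0.434 in GM06990. All lines were below the expectation there and SUM44 was lowest, with a mean log2 fold change of 2.78 over the 6 bins. The next bin, from 53000001, had a log2 fold change of 0.85 and was not called. Beyond it the direction turned: from 54000001 to 66000000 the ratio to expectation was 0.778 and 1.05 in BT483 and 1.70 and 1.71 in SUM44, and 4 of these 12 bins kept their call with SUM44 as 1 sample.

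On chromosome 16 the lowest bin, from 86000001 to 87000000, had 240 and 591 contacts in BT483, against 736 and 653 in SUM44 and 1291 and 1595 in GM06990 (log2 fold change -1.64 ± 0.33, edgeR adjusted p = 0.0169). Its ratio to expectation was 0.0931 and 0.197 in BT483 and 0.453 and 0.454 in SUM44. On chromosome 18 the highest bin, from 46000001, holds SMAD7, an inhibitor of transforming growth factor beta signalling that was named after the values were seen. It had 493 and 2368 contacts in BT483 and 648 and 607 in SUM44, or 0.764 and 0.82 times the expectation in BT483 and 0.286 and 0.312 in SUM44 (log2 fold change 1.41 ± 0.09, edgeR adjusted p = 0.00125). At 9q31.2 the 10 bins named had log2 fold changes between -0.84 and 0.95. None of these 10 kept its call with SUM44 as 1 sample (edgeR adjusted p between 0.0835 and 0.42). Of the 60 bins named by the rule of 5 per direction and region, 41 kept it, namely all 10 at 2q35 and all 10 of the chromosome 3 region, 9 of chromosome 16, 6 at 8q24.21 and 6 of chromosome 18.

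**Figure D2:**
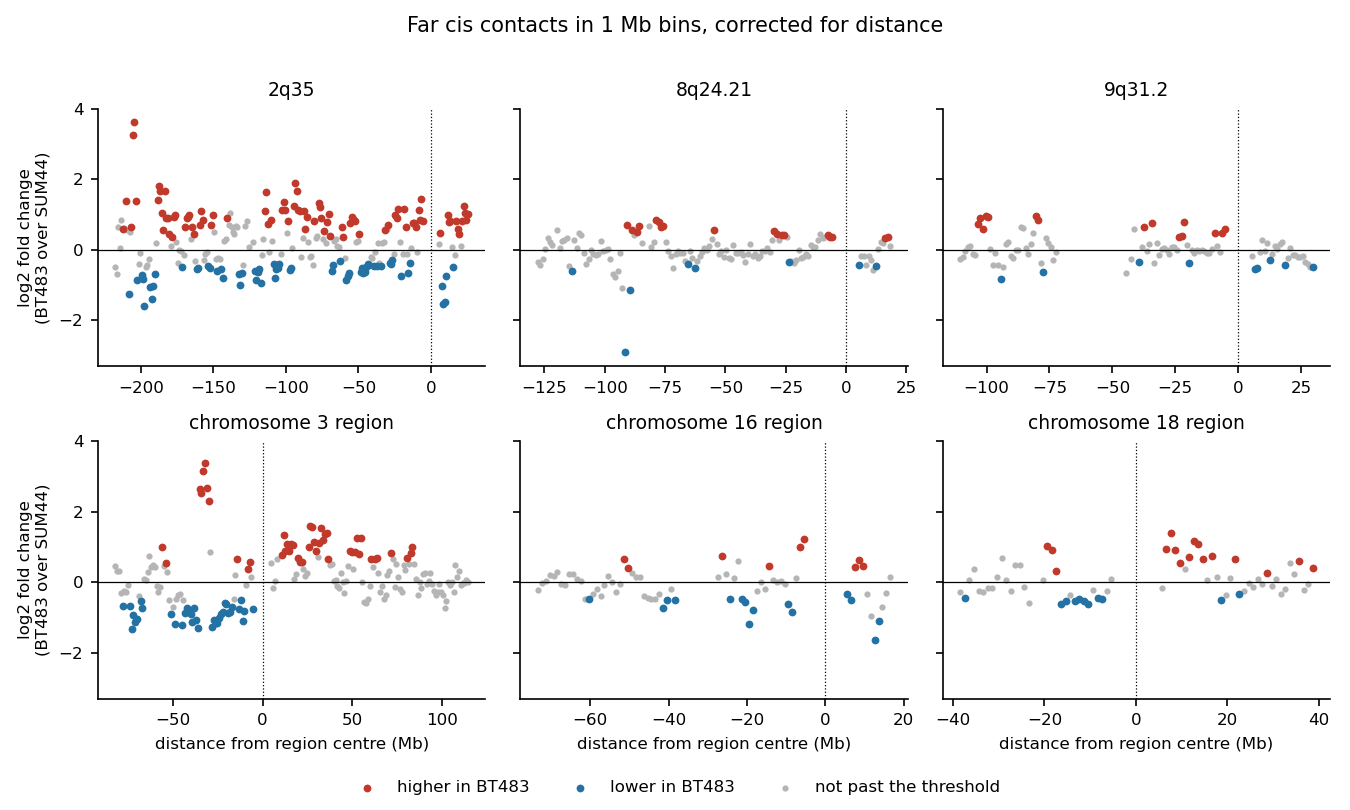
Log2 fold change of BT483 over SUM44 (vertical axis) in far cis bins of 1 Mb against distance from the centre of the captured region in Mb (horizontal axis), 1 panel per region, with called bins marked by direction. The 2q35 panel holds 87 higher and 59 lower bins of 231, the most of the 6 regions.

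Contacts with other chromosomes, summed over the captured regions, differed in 1094 of 2877 bins of 1 Mb (38% called by edgeR), 624 higher (21.7%) and 470 lower (16.3%) in BT483. The median log2 fold change of all bins was 0.10. TMM factors moved it to -0.01, and size factors of DESeq2 moved it to -0.03, with 449 higher and 592 lower, and 430 higher and 607 lower, so the balance of directions depends on the scaling. With the SUM44 replicates summed, 254 bins were called (8.83%), 126 higher and 128 lower. Without BT483 replicate 1 or 2 there were 2294 and 2146 calls, and without SUM44 replicate 1 or 2 there were 248 and 254. Levels below are given as CPM, the contacts of a 1 Mb bin per 1000000 trans contacts of the captured regions on other chromosomes. The median bin held 339.5 and 344 in BT483 and 318.5 and 321.6 in SUM44.

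Some chromosomes differed almost wholly in 1 direction. On chromosome 13, 77 of 97 bins were higher in BT483 and none was lower, with a median log2 fold change of 0.81. Chromosome 9 had 65 higher and 2 lower of 119 bins (median 0.64). Chromosome 3 split by position, with 104 higher and 53 lower of 196 bins. Its longest called run, the 46 bins from 93000001 to 139000000, was higher, at 409 and 384 CPM per bin in BT483 against 202 and 205 in SUM44. With the SUM44 replicates summed, 16 of these 46 bins were called. The lower runs of chromosome 3 all lay before 80000000. Chromosome 6 had 1 higher and 84 lower of 169 bins (median -0.51), chromosome 15 had 0 higher and 46 lower of 83 (median -0.55), and chromosome X had 0 higher and 53 lower of 154 (median -0.42). Fewer bins were called with the SUM44 replicates summed, namely 21 higher on chromosome 13, 5 higher and 2 lower on chromosome 9, and 34 higher and 28 lower on chromosome 3. On chromosomes 6, 15 and X 14, 2 and 1 lower bins were called, and no higher one. Chromosomes 12 and 20 had the smallest shares of called bins, with 10 and 2 higher and none lower. The medians of chromosomes 3, 6, 9, 13, 15 and X kept their signs under both other scalings.

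**Figure D3:**
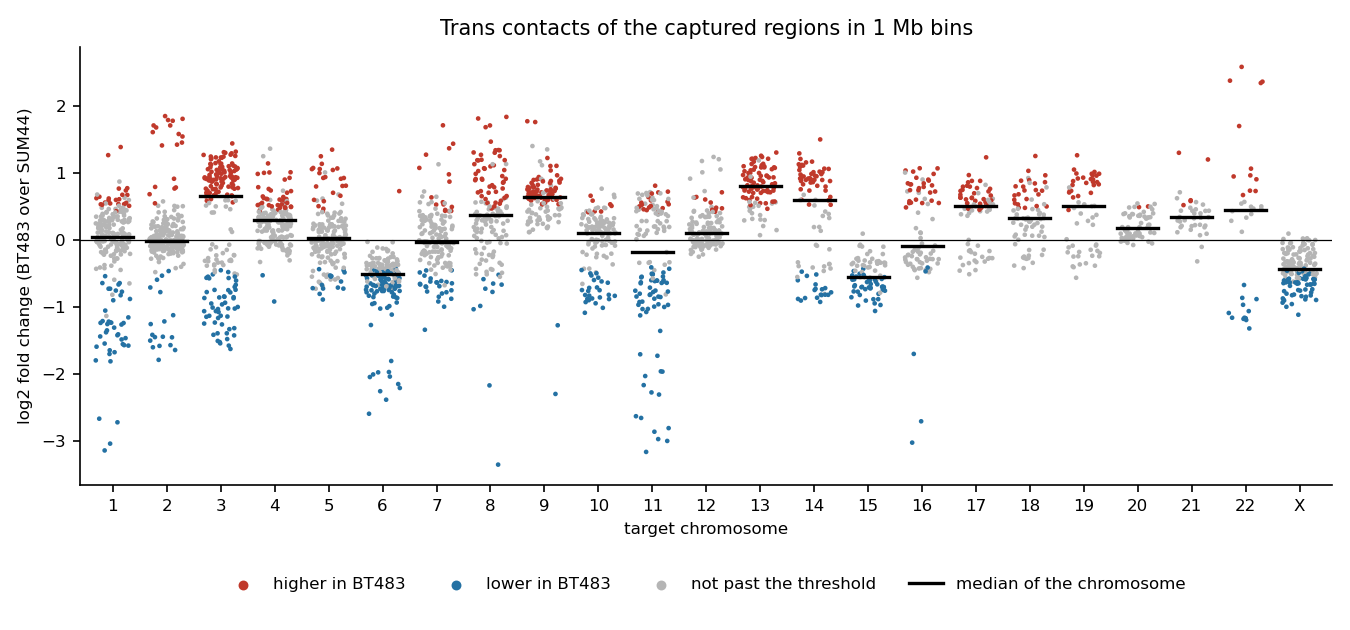
Log2 fold change of BT483 over SUM44 (vertical axis) of trans contacts in each 1 Mb bin (points), by target chromosome (horizontal axis), with a bar at the median of the chromosome. Chromosome 13 lies at a median of 0.81 and chromosome 15 at -0.55.

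Adjoining called bins formed 87 runs higher in BT483, of 545 bins, and 86 runs lower, of 426 bins. In 80 of the higher and 79 of the lower runs, the mean log2 fold change had the same sign in every region with a value there. Only captured regions on other chromosomes were counted, and some had too few contacts to give a value. The runs were called on the sum of these regions, so this agreement is partly built in. The 5 lowest and 5 highest runs by mean log2 fold change, described next, kept their direction and a median adjusted p under 0.05 in each of the 12 other settings run for them. Over all 173 runs, 51 kept at least 1 called bin with the SUM44 replicates summed, and 7 kept all.

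The lowest run lay on chromosome 16 from 53000001 to 56000000, the stretch of FTO, an RNA demethylase gene, and of the homeobox genes IRX3 and IRX5, all named after the values were seen. It held 395 and 473 CPM per bin in BT483, against 2662 and 2661 in SUM44 and 411 and 423 in GM06990, a mean log2 fold change of -2.48. BT483 was near GM06990 there, and SUM44 stood far above its own median bin. The 5 regions on other chromosomes had mean log2 fold changes between -2.70 and -2.19. From the chromosome 16 region itself the same stretch was less different, with a log2 fold change of -1.17 ± 0.19 in the bin from 54000001 and -0.78 ± 0.18 in the next (SE; edgeR adjusted p = 0.00858 and 0.0206).

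On chromosome 11 from 66000001 to 81000000, 15 adjoining bins were lower in BT483, with 223 and 305 CPM per bin in BT483, 1507 and 1478 in SUM44 and 344 and 351 in GM06990 (mean log2 fold change -2.29). This run holds CCND1, the cyclin D1 gene, with FGF3, a fibroblast growth factor gene, in the same bin. That bin had 185 and 223 in BT483 and 1331 and 1266 in SUM44, a log2 fold change of -2.66 ± 0.16 (SE; edgeR adjusted p = 0.00125). CTTN, the cortactin gene, had 188 and 255 in BT483 and 1425 and 1351 in SUM44 (log2 fold change -2.63 ± 0.19, edgeR adjusted p = 0.00154). PAK1, a kinase gene, and RSF1, a chromatin remodelling factor gene, share a bin with 220 and 315 in BT483 and 2385 and 2462 in SUM44, the largest difference of the listed genes (log2 fold change -3.17 ± 0.22, edgeR adjusted p = 0.00136). A separate run from 54000001 to 57000000 had 298 and 190 in BT483 and 853 and 843 in SUM44.

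On the short arm of chromosome 8, the bins of ZNF703 and FGFR1 were above the median bin in both breast lines. Over the run from 36000001 to 39000000 there were 1090 and 1310 CPM per bin in BT483, against 3387 and 3414 in SUM44 and 348 and 365 in GM06990 (mean log2 fold change -2.04). The bin of ZNF703 had 2338 and 2939 in BT483 and 3957 and 3959 in SUM44, and that of FGFR1 had 541 and 710 in BT483 and 2791 and 2869 in SUM44. BT483 was thus nearer to SUM44 at ZNF703 than at FGFR1. The log2 fold changes were -0.58 ± 0.18 and -2.17 ± 0.19 (SE; edgeR adjusted p = 0.0464 and 0.00205). With the SUM44 replicates summed the ZNF703 bin was not called (edgeR adjusted p = 0.505), and the FGFR1 bin was (edgeR adjusted p = 1.24e-05). At ZNF703 the log2 fold changes in trans and in cis from 8q24.21 had opposite signs, and neither was called with SUM44 summed.

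The other of the 5 lowest runs lay on chromosome 1 from 93000001 to 106000000, with 311 and 280 CPM per bin in BT483, 1231 and 1269 in SUM44 and 371 and 363 in GM06990 (mean log2 fold change -1.85). In all 5 lowest runs SUM44 was above its own median bin. In the 2 runs of chromosome 11 and in that of chromosome 1 both BT483 replicates were below theirs.

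The highest run lay on chromosome 22 from 17000001 to 25000000, with 255 and 283 CPM per bin in BT483, 79.1 and 74.6 in SUM44 and 190 and 207 in GM06990 (mean log2 fold change 1.76). Here SUM44 was the line that stood low. On chromosome 2 from 1 to 9000000 there were 360 and 237 in BT483, 96.2 and 93.4 in SUM44 and 362 and 381 in GM06990 (1.66), and from 10000001 to 14000000 there were 255 and 304 in BT483 and 87.7 and 95.9 in SUM44 (1.62). This second stretch overlaps the far cis bins of 2q35 with the largest ratio, so the cis and trans counts of separate captures were both higher in BT483 there. The trans run that follows on chromosome 2, from 15000001 to 29000000, was lower in BT483, with 300.2 and 288 in BT483 and 790.3 and 806 in SUM44 (-1.40), as were the far cis bins at 20000001 and 25000001. On chromosome 8 from 48000001 to 54000000 there were 714 and 555 in BT483, 246 and 246 in SUM44 and 360 and 371 in GM06990 (1.42). On chromosome 14 from 106000001 to 108000000 there were 246 and 257 in BT483, 99.5 and 110 in SUM44 and 86.3 and 89.96 in GM06990 (1.33). That run was the only 1 of the 5 highest in which GM06990 was below both BT483 and SUM44.

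**Figure D4:**
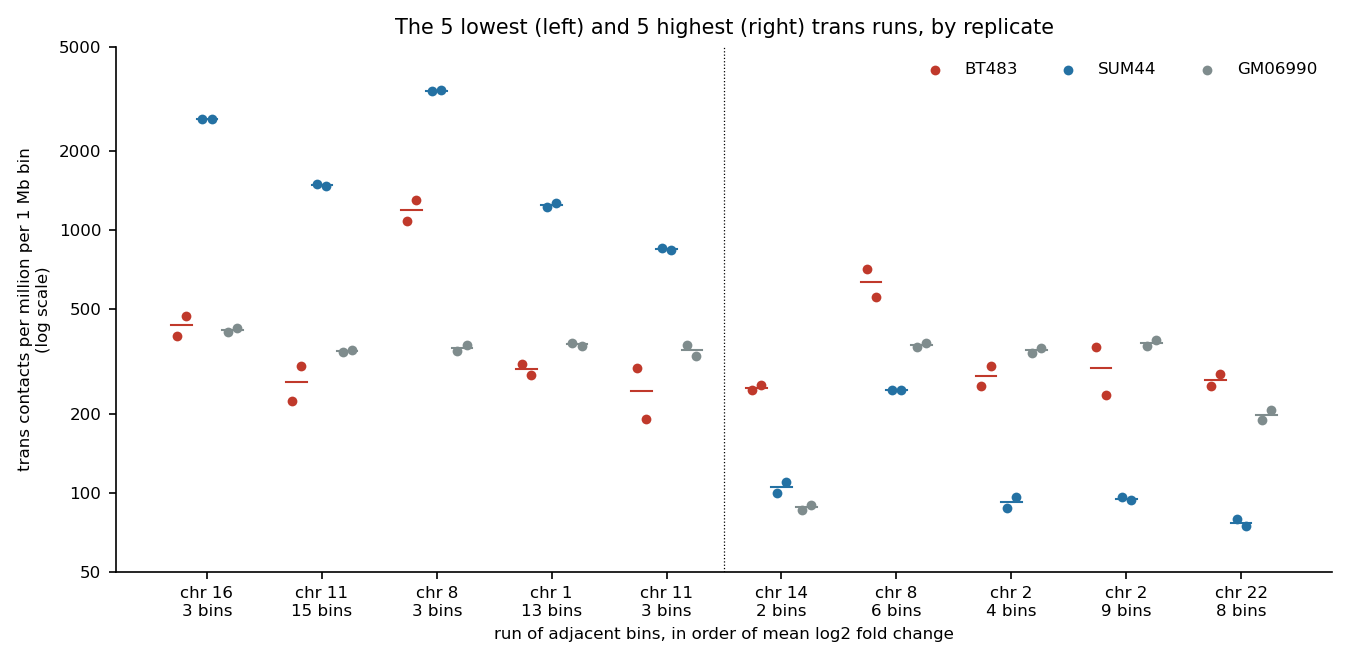
CPM per 1 Mb bin (logarithmic axis) in each replicate of BT483, SUM44 and GM06990, for the 5 lowest and the 5 highest runs by mean log2 fold change. In the chromosome 16 run the BT483 points lie at 395 and 473 and the SUM44 points at 2662 and 2661.

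The trans list held 17 genes, put together as genes of segments often gained in breast cancer, which was not checked here. Of these, 8 were not called, 1 lay in a bin higher in BT483 and 8 in lower ones (21.7% and 16.3% of all bins). Their median log2 fold change was -0.55, against 0.10 for all bins, and 5 of the 8 lower genes (CCND1, FGF3, CTTN, PAK1 and RSF1) lie in the chromosome 11 run. ERBB2, a receptor tyrosine kinase gene, had 244 and 251 CPM in BT483, 148 and 150.1 in SUM44 and 204 and 217 in GM06990, a log2 fold change of 0.74 ± 0.14 (SE; edgeR adjusted p = 0.0137). ESR1, the oestrogen receptor gene, had 187 and 249 in BT483, 340.03 and 355 in SUM44 and 394 and 388 in GM06990, a log2 fold change of -0.66 ± 0.18 (SE; edgeR adjusted p = 0.0329). At ERBB2 BT483 was the highest of the 3 lines and at ESR1 the lowest. Neither was called with the SUM44 replicates summed (edgeR adjusted p = 0.235 and 0.228). TERT, the telomerase subunit gene, had 267 and 176 in BT483 and 320.5 and 321 in SUM44 (log2 fold change -0.55 ± 0.22, edgeR adjusted p = 0.0938). MYC had 309 and 394 in BT483 and 280.2 and 271 in SUM44 (log2 fold change 0.36 ± 0.17, edgeR adjusted p = 0.146). AURKA, a mitotic kinase gene, had 925 and 406 in BT483 and 618 and 609 in SUM44, so that the BT483 replicates lay on both sides of SUM44. A gene could lie in the neighbouring bin, since its bin was set from its approximate GRCh37 position.

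Tested by captured region, 5412 of 15823 pairs of region and bin were called (34.2%), 3204 higher (20.2%) and 2208 lower (14%) in BT483. TMM factors within each region gave 2512 higher and 2737 lower. With the SUM44 replicates summed there were 1947 calls (12.3%), 1136 higher and 811 lower, and DESeq2 called 1900 higher and 1250 lower. Without BT483 replicate 1 there were 8708 calls, and without SUM44 replicate 1 or 2 there were 1515 and 1661. In 258 called pairs the log2 fold change differed by over 1 from the median of the other regions, 188 below it and 70 above. Adjoining ones formed 42 stretches, 15 for the chromosome 18 region, 13 for 2q35, 6 for 8q24.21, 6 for the chromosome 16 region, 2 for 9q31.2 and none for the chromosome 3 region. The stretches were chosen for this difference, so it is described and not tested. Of the 42, 36 kept at least 1 called bin with the SUM44 replicates summed, and 27 kept all.

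The widest gap belonged to 2q35 with the end of chromosome 7, from 142000001 to 159000000. In CPM, here of the 2q35 trans total alone, it averaged 396 and 336 in BT483, against 1344 and 1152 in SUM44 and 378 and 368 in GM06990. Its mean log2 fold change was -1.70, and the other regions averaged between 0.46 and 1.12. At the chromosome 3 stretch from 45000001 to 51000000, 2q35 had 347 and 414 in BT483, 1610 and 1425 in SUM44 and 314 and 344 in GM06990 (mean log2 fold change -1.94, others between -0.15 and 0.62). SUM44 thus had more contact of 2q35 with both stretches, and BT483 was near GM06990. Of the 13 stretches of 2q35, 8 lay on chromosome 3 between its start and 79000000, all lower in BT483. The chromosome 3 region's own far cis contacts with 47000001 to 53000000 were higher in BT483, so the direction differed between the captures.

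8q24.21 differed most with chromosome 6 from 61000001 to 72000000, with 184 and 153 CPM per bin in BT483, against 2110 and 1849 in SUM44 and 298 and 309 in GM06990. The mean log2 fold change was -3.53, and the other regions were also lower in BT483, between -1.39 and -0.77. The chromosome 18 region had 850 and 1110 in BT483, against 4013 and 3600 in SUM44 and 433 and 487 in GM06990, with chromosome 8 from 117000001 to 120000000. Here the mean log2 fold change was -1.87 and the other regions lay between 0.18 and 0.64. With chromosome 5 from 1000001 to 18000000 it had 422 and 311 in BT483 and 1622 and 1472 in SUM44 (-2.08, others between -0.50 and 0.02). In these 3 stretches both SUM44 replicates stood far above BT483 and GM06990. With chromosome 10 from 43000001 to 46000000 the direction was the other one, 697 and 856 in BT483 and 348 and 316 in SUM44 (1.25, others between -0.46 and 0.05). The chromosome 16 region had 1756 and 891 in BT483, against 400.1 and 369 in SUM44 and 300.4 and 321 in GM06990, with chromosome 12 from 125000001 to 133000000 (1.77, others between 0.04 and 0.98). The BT483 replicates lay far apart there, and both were above SUM44.

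**Figure D5:**
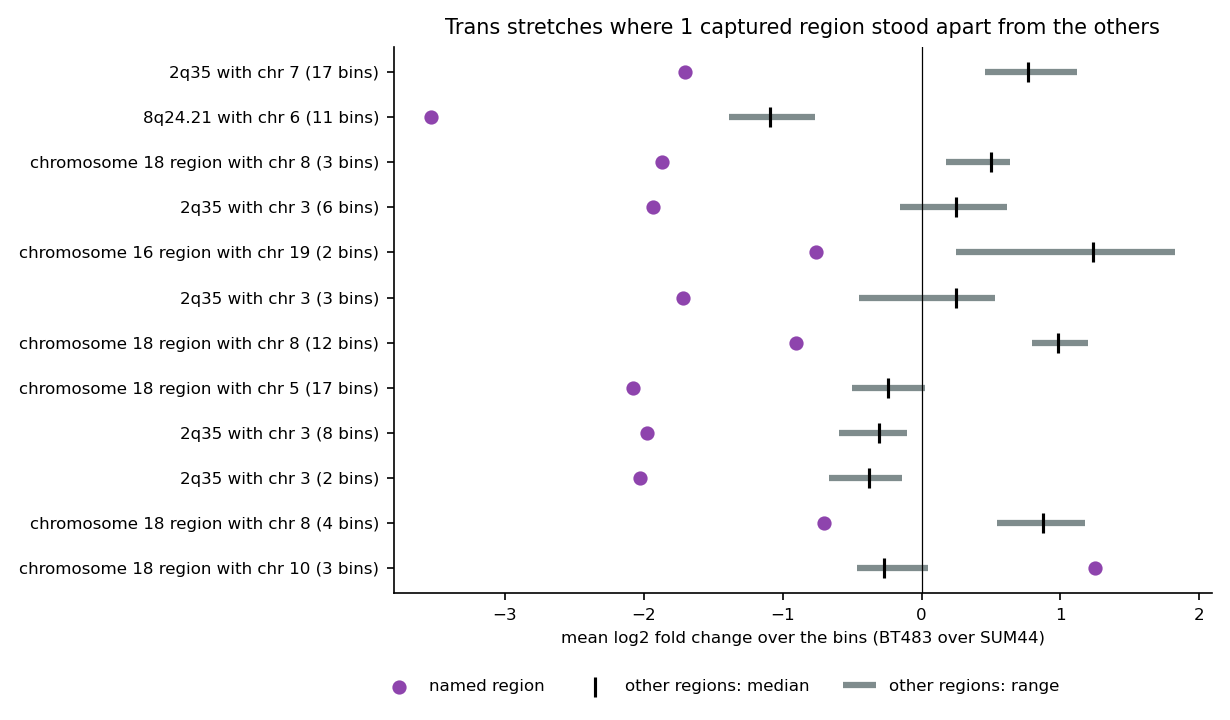
Mean log2 fold change of BT483 over SUM44 (horizontal axis) for the 12 stretches with the largest difference between 1 captured region (marked point) and the others (line for their range, tick for their median). The 2q35 point for chromosome 7 lies at -1.70, with the other regions between 0.46 and 1.12.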

How the data were processed

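The authors deposited raw counts of ligated read pairs, with 1 column per replicate, in tables of near cis pairs by HindIII fragment and of far cis and trans pairs by 50 kb window. Positions are GRCh37 (hg19) and CASAVA 1.8 was used, per the submitters' processing notes; the aligner, pair filters and duplicate removal are not given in the sources used here. Tables of pairs within the captures were not used here. For each target, the counts with all captured fragments of 1 region were added up. For near cis, a negative binomial spline of distance (4 knots, with the trans count of the captured fragment) gave the expected count in each replicate and region. For far cis, the spline took the distance of each 50 kb window to the centre of the region, with no trans count. These expected counts were the offsets. For trans, the offset was the trans total of the regions on other chromosomes than the bin, a reading of the planned trans total.

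Features with at least 50 contacts over the 2 replicates of 1 line were tested with edgeR 4.0.16 (quasi-likelihood F test, R 4.3.3), with Benjamini-Hochberg adjustment over all features of a comparison and a threshold of 0.05; an exact permutation test of 2 against 2 libraries cannot go below 0.33. DESeq2 1.42.0 was an alternative. Expected counts and figures were made in Python 3.11.15. The test was also run on counts simulated with the same spread in both lines. In the data the BT483 replicates differed far more than the SUM44 ones, so that run cannot vouch for the calls here. Near cis and far cis features named are the 5 highest and 5 lowest called per region, trans runs (at least 2 adjoining called bins) the 5 of each direction, and genes those of a list; genes outside it are said to be so where named. The members and lists were chosen with earlier results of these data known. Gene positions are approximate GRCh37 starts from general knowledge. For 58 of 58 near genes the spacing of at least 1 gene end matched RefSeq GRCh38.p14 within 5 kb. For 17 of 17 trans genes at least 1 end lay on the same chromosome within 3 Mb. The end that matched need not be the start. No GRCh37 annotation was used, so exon or intron is not stated.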

Additional observations from a re-analysis of the deposited data

How the results depend on the processing

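Counts of calls depended on which library was left out. Leaving out 1 library in turn gave 3 to 1307 near cis fragments, 0 to 517 windows, 120 to 583 far cis bins, 248 to 2294 trans bins, 1515 to 8708 pairs of region and bin, and 0 to 706 captured fragments. With the SUM44 replicates summed, calls were 6 near cis fragments, 130 far cis bins, 254 trans bins and 1947 pairs of region and bin. Replicate numbers share no known source, and replicate differences of the lines correlated at 0.02 to 0.09 over contact features and 0.25 over captured fragments. With these numbers as a replicate block there were 111 near cis fragments, 158 windows and 139 captured fragments, and the other counts moved by less than 1.5 times. Fitting all 3 lines gave 74 fragments, 135 windows and 37 captured fragments. DESeq2 gave 5 fragments, 68 windows, 3150 pairs and 138 captured fragments. TMM factors without a distance term gave 234 fragments (19 higher, 215 lower) and 5 windows; size factors of DESeq2 gave 0 fragments (2120 at an unadjusted p under 0.05) and 16 windows. Windows of 100 kb gave 64 calls, and 0 with SUM44 summed (53 at an unadjusted p under 0.05). Bins of 500 kb gave 495 calls in far cis and 1951 in trans, of more bins. Fragments without a count minimum gave 28. The plain trans total of all 6 regions, added after seeing the data, gave 1085 trans bins. Causes were not tested.

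Without a distance term the log2 fold change turned at IGFBP5 (-1.49 with TMM, -1.53 with size factors) and DIRC3 (-1.59 with size factors). Those values were called (edgeR adjusted p = 0.0487, 0.0323 and 0.0451). It also turned at the 8q24.21 far cis bin from 65000001 (0.18 with TMM, edgeR adjusted p = 0.61). These are not all the changes. A further 27 of the 58 gene windows with TMM and 29 with size factors moved in value, and whether their sign turned is not given here. Leaving out 1 library gave -0.17 to 0.37 at CCDC26, -0.32 to 0.16 at MDM2 in trans and -0.60 to 0.59 at AURKA in trans. The planned test over whole gene bodies was not run. Depth was lowest in BT483 replicate 1 and limits features with few contacts. Copy number, lysis and medium cannot be told apart from the line.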

Other observations

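The trans counts of the captured fragments themselves were compared as well. Recovery and copy number of a captured region cannot be told apart in these counts, and neither was tested. Of 1041 captured fragments 0 were called by edgeR, with 286 at an unadjusted p under 0.05, and DESeq2 called 138, 52 higher and 86 lower in BT483. The median log2 fold change of BT483 over SUM44 was -0.84 for the 219 fragments of 2q35 and 0.74 for the 185 of the chromosome 16 region, and lay between 0.20 and 0.41 for the other regions.

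The chromosome 18 region had more contact with several stretches of chromosome 10 in BT483, both near the centromere and near its start. From 51000001 to 59000000 there were 883 and 876 CPM per bin in BT483, against 397 and 392.3 in SUM44 and 358 and 347 in GM06990, and from 34000001 to 36000000 there were 721 and 843 in BT483 and 414 and 374 in SUM44. From 1000001 to 3000000 there were 911 and 629 in BT483 and 380.4 and 379.7 in SUM44. With chromosome 20 from 51000001 to 55000000, the stretch of ZNF217 and AURKA, the same region had 724 and 558 in BT483 and 1341 and 1318 in SUM44. At the chromosome 20 stretch from 40000001 the regions differed in direction: 2q35 had 708 and 734 in BT483 and 302 and 331 in SUM44, and the chromosome 18 region had 666 and 821 in BT483 and 1522 and 1286 in SUM44.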
